A study of Homo sapiens with 15 samples.

Results

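The genes described here are named for mitochondrial ribosome proteins and were followed in MIA PaCa-2 cells, an established line from a human pancreatic carcinoma. They were chosen by name alone, as every gene whose symbol is MRPL or MRPS with a number and an optional letter A to C, where L stands for the large and S for the small subunit. Of 60107 genes listed in each library, 78 met the rule, 48 of the large and 30 of the small subunit. They carry 77 symbols, since MRPS17 is listed at 2 gene identifiers. The study held 5 groups of 3 libraries: cells given vehicle (labelled Ctrl), or Lys05, BAQ12, BAQ13 or BAQ12O (called 12O in the design text), each at 5 µM for 24 h. Lys05 is a dimeric chloroquine that accumulates in lysosomes and blocks autophagy, and the study compared it with BAQ12 and BAQ13, which were designed partly from it, and with BAQ12O. BAQ12 and BAQ13 assemble into nanoparticles in water, and the study describes the BAQ13 cells as treated with such nanoparticles. All cells came from 1 line, and nothing in the labels says whether the 3 libraries of a group came from separate cultures, so the p-values measure only the spread between these libraries.

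Mitochondria keep a ribosome of their own, which makes only the respiratory chain and ATP synthase subunits encoded by mitochondrial DNA. Its rRNAs are transcribed inside the organelle, whereas all of its proteins are encoded in the nucleus, translated in the cytosol and imported. The small subunit reads the mRNA, and the large subunit joins the amino acids and feeds the new chain to the inner membrane. The names do not sort the proteins perfectly: in human structures MRPS18A and MRPS30 sit in the large subunit despite their small-subunit names, and they are kept here under their names. Membership rests on the symbol alone, and whether every member, MRPS36 among them, is part of the ribosome was not checked.

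RefSeq promoter windows on GRCh38.p14, from 250 bases before to 50 after a transcription start, matched 68 of the 77 symbols, with 84 windows in all. Genes of this family have long been studied as targets of a few nuclear factors, so the windows were searched on both strands for the letters CCGGAAG of the ETS family, GCGCANGCG of NRF1 and AAGATGGCG of YY1. The end of the ETS letters can overlap the start of the YY1 letters. CCGGAAG was found in 32 of the 84 windows (38.1%), against 18.5% of the windows of all genes tested for expression and 10.3% of all windows. AAGATGGCG was found in 13 of the 84 (15.5%), against 4.05% and 1.75%. GCGCANGCG was found in 15 of the 84 (17.9%), against 14.1% and 7.52%, and in 12 of the 51 large-subunit windows but 3 of the 33 small-subunit windows. Of 2 general promoter motifs, CCAAT was in 28 of the members' 84 windows (33.3%) against 34.6% of all windows, and GGGCGG in 50 (59.5%) against 68.5% of the windows of genes tested and 45% of all. Such matches describe the letters and were not tested as sites. The 100 bases before the earlier of the RefSeq and GENCODE starts are printed for MRPL3, MRPL16 and MRPL33. These large-subunit genes passed as lower with both BAQ13 and BAQ12O when some libraries were left out, as given below. MRPL57 did so too, but its bases lie in an annotated untranslated region and are not printed. A link between the letters and the values was not tested. Capitals mark CCGGAAG, which is near the start of MRPL3. The whole windows of MRPL16 and MRPL33 hold CCGGAAG too, but no full copy lies within the bases printed here, which break off inside it in MRPL33.
MRPL3 (GRCh38 chr3:131502984-131503083, minus strand): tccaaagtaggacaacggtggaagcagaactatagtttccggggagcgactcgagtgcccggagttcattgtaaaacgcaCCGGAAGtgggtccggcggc
MRPL16 (GRCh38 chr11:59810873-59810972, minus strand): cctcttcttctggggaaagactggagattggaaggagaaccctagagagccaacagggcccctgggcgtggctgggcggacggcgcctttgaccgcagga
MRPL33 (GRCh38 chr2:27771617-27771716, plus strand): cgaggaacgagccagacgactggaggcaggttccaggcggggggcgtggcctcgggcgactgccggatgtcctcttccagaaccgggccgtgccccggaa

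Each library held 1586566 to 2500551 reads on genes (median 2230594), of which the mitochondrial ribosomal protein genes took about 0.5%. Values are read counts divided by a size factor (normalised counts), and 3 reads correspond to 2.49 to 4.14 normalised counts. Epithelial keratins KRT8, KRT18 and KRT19 and the mesenchymal VIM were detected in every library, whereas EPCAM had at most 1 read and CDH1 at most 5, so 2 of the 5 epithelial markers were at or near 0 in these cells. Acinar, islet and endothelial markers had at most 1 read per library and immune markers at most 6, and among fibroblast markers COL1A2 alone was well detected. Replicate 3 of BAQ12 stood apart, with a median correlation of 0.939 with the other libraries against 0.964 to 0.978 for the rest. In that library 34 of the 75 tested members lay at least 0.5 on the log2 scale from the mean of the other two BAQ12 libraries. So did 4169 of all 10495 genes tested. Replicate 1 of BAQ13 departed from its own group in the same genes. Over the 75 members the deviations of these 2 libraries correlated at r = 0.84, against r = 0.57 over all 10495 genes tested, given as a description since genes are not independent. Results are therefore also given without them where a call changes.

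Of the 78 members, 75 passed the filter on low reads, 47 of the large and 28 of the small subunit. MRPS24 had 0 to 2 reads per library and MRPL39 had 0 to 7, and the second listing of MRPS17 had none, so these 3 members were not tested. MRPS24 shares 606 exon bases with the read-through gene URGCP-MRPS24 on the same strand, which had a mean of 0 in vehicle. In vehicle, 40 members had a mean of at least 100 normalised counts. Per kilobase of annotated exon, the highest small-subunit gene was MRPS35, which had 524, 581 and 576 normalised counts in the 3 vehicle libraries or 283 per kilobase, and the lowest was MRPS11 at 4.30 per kilobase. Among large-subunit genes MRPL51 was highest, with 383, 370 and 459 normalised counts or 260 per kilobase, and MRPL23 was lowest at 5.90 per kilobase. If the libraries were made from 3′ ends, as the labels state, a count does not grow with length and the order per kilobase would differ. Within vehicle the members varied little: the median coefficient of variation was 8.70%, close to the 9.37% that counting alone gives at these depths. It was 9.36% with Lys05, 8.89% with BAQ12O, 14.9% with BAQ13 and 18.7% with BAQ12. Over all genes tested the medians were 10.8% with vehicle, 11.2% with Lys05, 12.1% with BAQ12O, 14.4% with BAQ13 and 20.0% with BAQ12.

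The transcripts of the mitochondrial ribosomal proteins changed little with any of the 4 compounds. In limma with Benjamini-Hochberg adjustment over the 10495 genes tested, 2 of 75 members passed an adjusted p of 0.05 with BAQ13 and none with Lys05, BAQ12 or BAQ12O. No member reached a 2-fold change in any of these comparisons, and the fitted log2 fold changes ran from -0.63 to 0.60. The 95% interval of the log2 fold change lay within -1 to 1 for 75 of 75 members with Lys05, 69 with BAQ12, 72 with BAQ13 and 71 with BAQ12O. All 4 comparisons share the vehicle libraries.

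**Figure D1:**
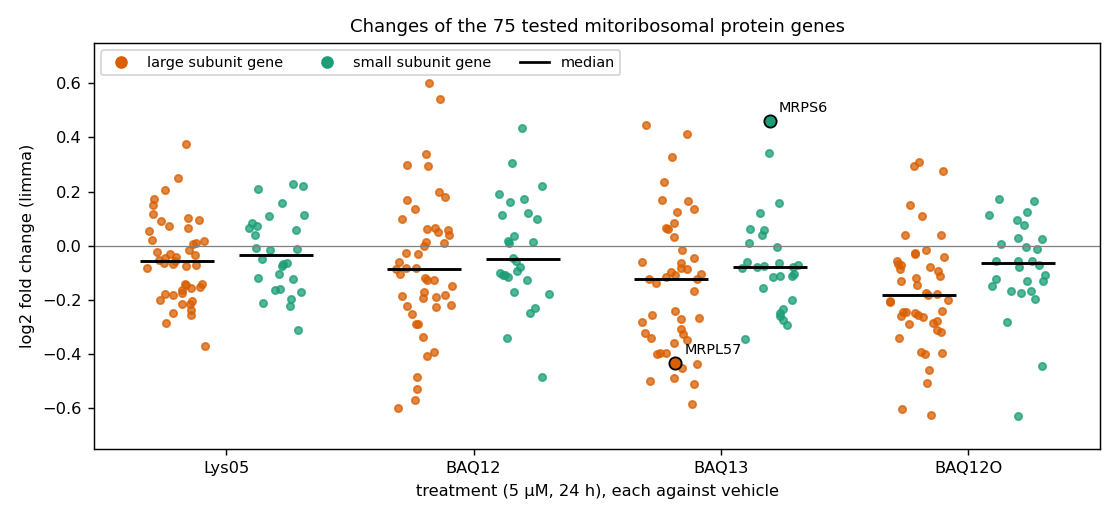
Each point is 1 of the 75 tested genes, with its limma log2 fold change against vehicle on the vertical axis and the treatment on the horizontal axis; outlined points passed an adjusted p of 0.05 and black bars are medians. The median of the large-subunit genes lay at -0.06, -0.09, -0.12 and -0.18 with Lys05, BAQ12, BAQ13 and BAQ12O, and 2 outlined genes, MRPS6 and MRPL57, appear with BAQ13.

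With BAQ13, MRPS6 rose and MRPL57 fell. These 2 of 75 members are 2.67%, against 5.77% of all genes tested, and 12 (16%, against 19.4%) had an unadjusted p under 0.05. MRPS6 (ENSG00000243927; chromosome 21, 34073224 to 34143034, plus strand), a small-subunit protein with a bacterial counterpart, had 309, 283 and 292 normalised counts with BAQ13 and 191, 232 and 220 with vehicle. Every BAQ13 library lay above every vehicle library, and the log2 fold change was 0.46 (SE 0.09, 95% interval 0.27 to 0.65, adjusted p = 0.00515 by limma). MRPS6 was at 184, 202 and 203 with Lys05, 238, 232 and 247 with BAQ12 and 245, 232 and 243 with BAQ12O. Those groups overlapped with vehicle, so BAQ13 was the treatment with the highest values. Its call held in every other setting tried, with adjusted p at most 0.0367.

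The exons of MRPS6 share 273 bases on the same strand with SLC5A3, a myo-inositol transporter gene whose span lies within that of MRPS6. SLC5A3 had 382, 355 and 394 normalised counts with BAQ13 against 214, 248 and 229 with vehicle, with no overlap. Its log2 fold change was 0.71 with BAQ13 (SE 0.09, adjusted p = 8.69e-05 by limma) and 0.41 with BAQ12O (adjusted p = 0.0301), against 0.16 for MRPS6 with BAQ12O (adjusted p = 0.48). How reads in the shared bases were assigned is not stated, and the part of SLC5A3 in the rise of MRPS6 was not tested.

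MRPL57 (ENSG00000173141; chromosome 13, 21176645 to 21179084, plus strand), a large-subunit protein found only in mitochondrial ribosomes, had 167, 148 and 179 normalised counts with BAQ13 and 237, 208 and 222 with vehicle. Every BAQ13 library lay below every vehicle library, and the log2 fold change was -0.43 (SE 0.10, 95% interval -0.65 to -0.22, adjusted p = 0.0144 by limma). The values were also below all vehicle libraries in the other 3 treatments. They were 199, 202 and 177 with Lys05, 185, 205 and 182 with BAQ12 and 180, 173 and 183 with BAQ12O, with log2 fold changes of -0.20, -0.22 and -0.31 that did not pass (adjusted p = 0.99, 0.42 and 0.17). The BAQ13 call was lost without vehicle replicate 1 (adjusted p = 0.0713), vehicle replicate 3 (0.0598) or BAQ13 replicate 2 (0.0896).

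**Figure D2:**
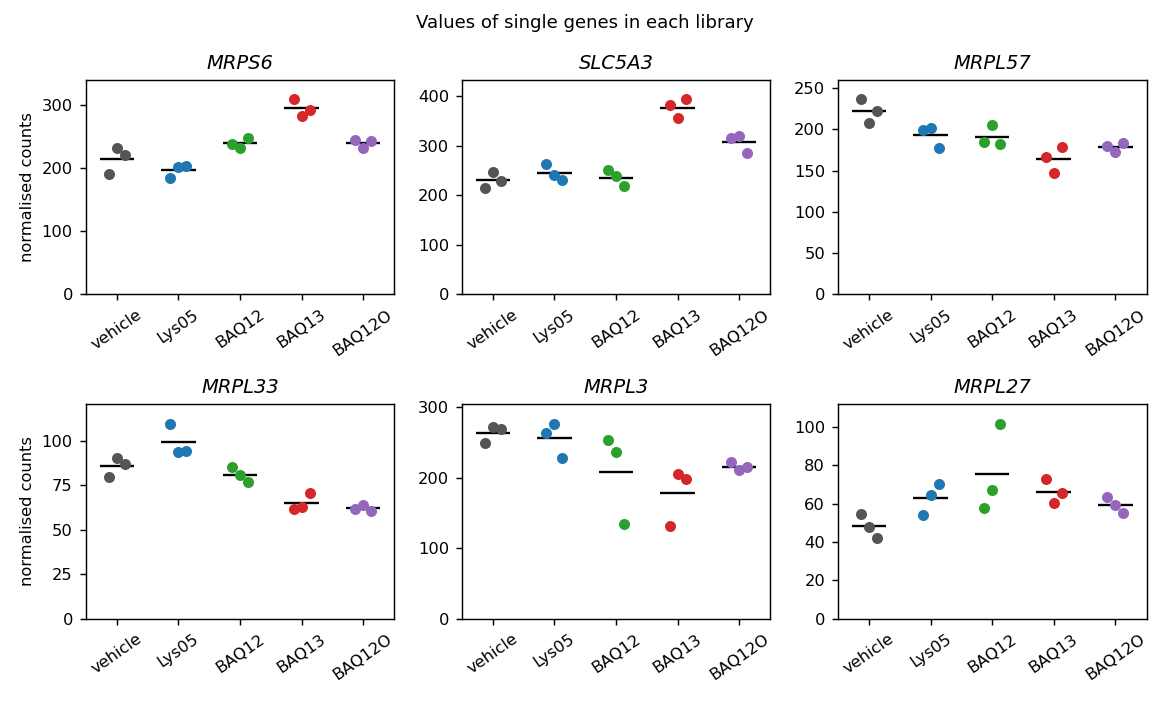
Normalised counts of 6 genes on the vertical axes, with the 5 groups on the horizontal axes, 1 point per library and a bar at the mean of 3. MRPS6 and its exon-sharing neighbour SLC5A3 were highest with BAQ13, MRPL57 and MRPL33 were lowest with BAQ13 or BAQ12O, and 1 BAQ12 and 1 BAQ13 library of MRPL3 lay far below the rest.

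Most other members lay slightly lower with BAQ13. Of the 75 tested, 55 had a log2 fold change below 0 (73.3%), against 50.5% of all genes, and the median was -0.12 for the large and -0.08 for the small subunit, against 0.00 for all genes. All 3 BAQ13 libraries lay below all vehicle libraries for 14 members (18.7%, against 14.4% of all genes) and above them for 4 (5.33%, against 14.5%). The lowest large-subunit gene was MRPL3, a core protein near the catalytic centre, at 132, 206 and 199 normalised counts against 249, 272 and 269 in vehicle. Its groups did not overlap, and the log2 fold change of -0.58 (SE 0.19) did not pass (adjusted p = 0.089 by limma). Its rank rested on replicate 1 of BAQ13. Without that library and replicate 3 of BAQ12 the log2 fold change of MRPL3 was -0.38, and MRPL50 (-0.51) and MRPL57 (-0.45) lay lower. MRPL27, whose bacterial counterpart reaches into the catalytic centre, was the highest large-subunit gene at 72.8, 60.2 and 65.4 against 54.8, 48 and 42.2, with a log2 fold change of 0.45 (adjusted p = 0.18). MRPS23, specific to mitochondrial ribosomes, was the lowest small-subunit gene, at 62.5, 82 and 86.3 against 91.3, 94.9 and 106 (log2 fold change -0.34, adjusted p = 0.22).

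The number of BAQ13 calls moved with the libraries that set the spread. Without replicate 3 of BAQ12, which is in neither group, 10 of 75 members passed (13.3%), against 13.7% of all genes. Of these 10, MRPS6, MRPS15 and MRPL27 were higher, and MRPL1, MRPL3, MRPL16, MRPL33, MRPL35, MRPL44 and MRPL57 were lower. Without that library and replicate 1 of BAQ13, 4 passed: MRPS6 was higher and MRPL3, MRPL50 and MRPL57 were lower, against 12% of all genes. With the 6 libraries compared alone, 4 passed, namely MRPS6 (higher) and MRPL1, MRPL3 and MRPL57 (lower), against 9.02% of all genes.

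With BAQ12O none of the 75 members passed in limma, against 1.48% of all genes, and 6 had an unadjusted p under 0.05 (8%, against 12.8%), all lower. None passed with edgeR or DESeq2. In these tools 6 and 4 members had an unadjusted p under 0.05, against 1293 and 911 of all 10495 genes. Large-subunit genes lay mostly below vehicle by small amounts. Of the 47 tested, 40 had a log2 fold change below 0 (85.1%, against 50.5% of all genes), with a median of -0.18, whereas 19 of 28 small-subunit genes did, with a median of -0.06. All BAQ12O libraries lay below all vehicle libraries for 18 members (24%, against 13.3% of all genes) and above them for 4 (5.33%, against 12.5%). MRPL33, a small protein of the large subunit (ENSG00000243147; chromosome 2, 27771717 to 27988087), had 61.4, 63.9 and 60.7 normalised counts against 79.7, 90.4 and 87.2 in vehicle. The groups did not overlap, and the log2 fold change was -0.46 (SE 0.12, adjusted p = 0.0675 by limma). Its exons share 324 bases with BABAM2 on the same strand.

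Among the extremes with BAQ12O, MRPL28 and MRPS11 were low in counts. MRPL28 had 14, 23.8 and 8.27 normalised counts against 22.4, 24.6 and 20.2, a log2 fold change of -0.63 with a 95% interval of -1.35 to 0.10, and MRPL38 had 51.7, 74.4 and 57.9 against 42.3, 51.4 and 53.2 (0.31, interval -0.32 to 0.93). In the small subunit MRPS11, part of the platform that binds mRNA, had 19.4, 16.2 and 11 against 20.8, 27.9 and 23.9 (-0.63, interval -1.31 to 0.05). MRPS15 was the highest, at 231, 276 and 261 against 246, 221 and 213 (0.17, interval -0.23 to 0.58). None of these intervals excluded 0. With the 6 BAQ12O and vehicle libraries alone, 6 members passed, all lower (MRPL3, MRPL16, MRPL20, MRPL33, MRPL51 and MRPL57), against 8.3% of all genes. The same number passed without replicate 3 of BAQ12 and replicate 1 of BAQ13, against 9.28%, and without the first of these alone MRPL16 and MRPL33 passed, against 4.99%. MRPL16 had 64.7, 55.3 and 46.9 normalised counts with BAQ12O against 83, 77 and 93.6.

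With Lys05 none of 75 members passed in limma, against 0.238% of all genes, and none did with edgeR or DESeq2. MRPS7, which binds the small-subunit rRNA, was the 1 member with an unadjusted p under 0.05 in limma, against 4.98% of all genes. At that level edgeR also gave 1 and DESeq2 gave 0, against 516 and 271 of all 10495 genes. MRPS7 had 206, 196 and 208 normalised counts against 174, 175 and 170 in vehicle, with no overlap (log2 fold change 0.23, SE 0.10, adjusted p = 0.92 by limma). MRPL27 was the highest large-subunit gene (0.37, 95% interval -0.01 to 0.76), and MRPL32, whose precursor is cut by an inner membrane protease, was the lowest (-0.37, -0.78 to 0.03). MRPS18A was the lowest small-subunit gene (-0.31, -0.86 to 0.24). Members below all vehicle libraries numbered 3 (4%, against 7.37% of all genes), and 3 lay above them (against 8.24%). Among all 75, 48 had a log2 fold change below 0 (64%, against 49.6%).

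With BAQ12 none of 75 members passed in limma, against 0.981% of all genes, nor in edgeR or DESeq2. At an unadjusted p under 0.05 there were 5 in limma (6.67%, against 11.8% of all genes). Both edgeR and DESeq2 gave 4, against 1169 and 809 of all 10495 genes. Replicate 3 lay far from the other two for MRPL22 and MRPS15. MRPL22, which lines the exit tunnel, had 115, 123 and 41.5 normalised counts against 115, 147 and 122 in vehicle, and MRPS15 had 232, 266 and 465 against 246, 221 and 213. In both genes the other two BAQ12 libraries lay near vehicle. MRPL27 was above vehicle in all 3 libraries, at 57.8, 67.2 and 102, with a log2 fold change of 0.60 (SE 0.18, adjusted p = 0.18), and MRPS11 was at 13.8, 11.9 and 28.9 (-0.49, SE 0.32), low in replicates 1 and 2. Members below all vehicle libraries numbered 3 (4%, against 7.61% of all genes), and 2 lay above them (against 7.75%). Of the 75, 45 had a log2 fold change below 0 (60%, against 50.2%). Without replicate 3 of BAQ12 no member passed in limma either, against 1.31% of all genes.

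**Figure D3:**
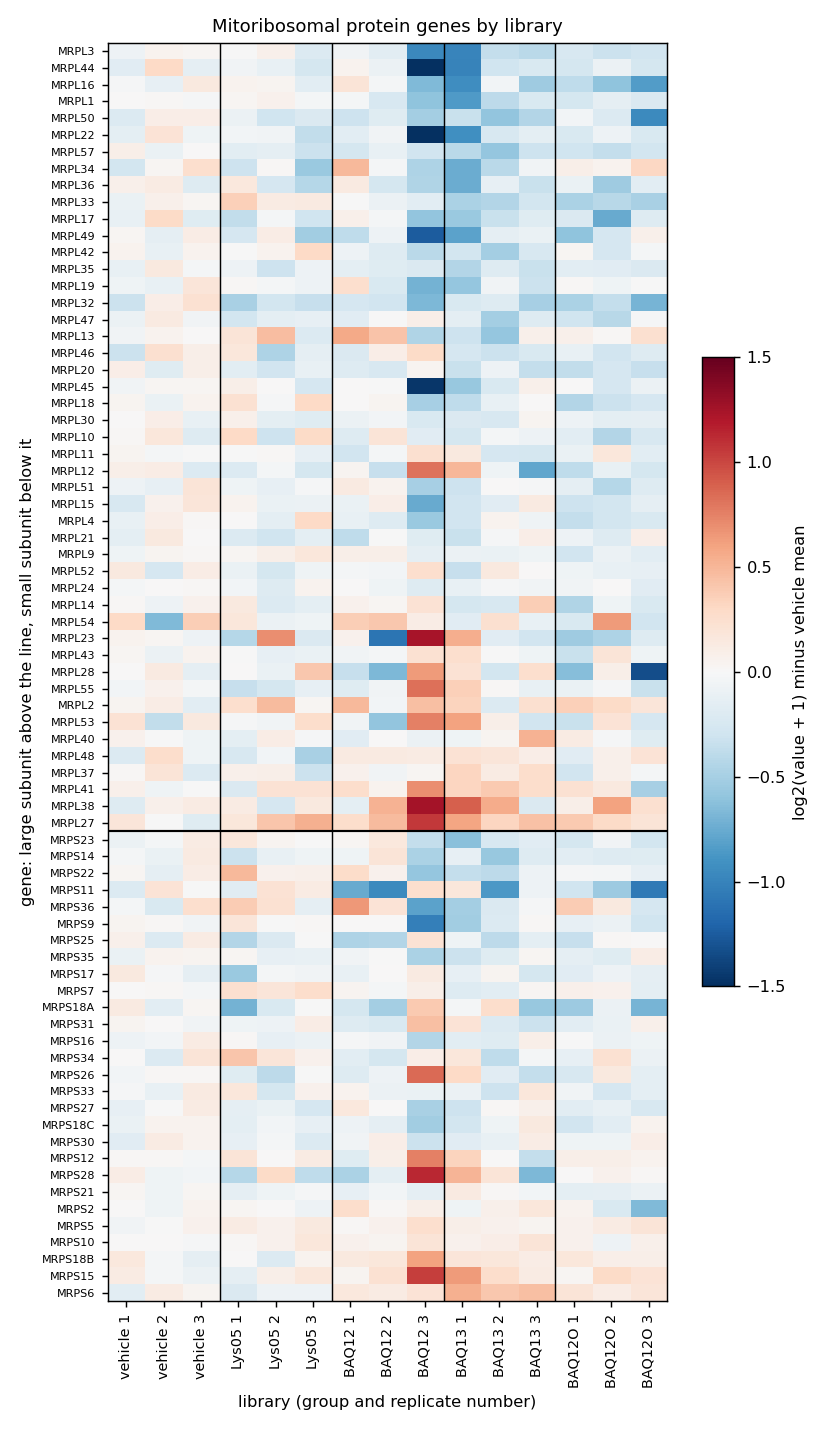
Rows are the 75 tested genes, ordered within each subunit by their BAQ13 value, columns are the 15 libraries, and colour is log2(value + 1) minus the vehicle mean, with the scale ending at -1.5 and 1.5. Replicate 3 of BAQ12 and replicate 1 of BAQ13 show the strongest colours, in many of the same genes.

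Between treatments the calls were at MRPS6 and MRPL33. BAQ13 against Lys05 gave 2 called members (2.67%, against 2.66% of all genes). MRPS6 was higher with BAQ13 (log2 fold change 0.58, SE 0.09, adjusted p = 0.00112 by limma). MRPL33 was lower, at 61.6, 62.9 and 70.4 normalised counts against 110, 93.7 and 94.3 with Lys05, with no overlap (-0.60, SE 0.12, adjusted p = 0.00776), and this call was lost without replicate 1 of Lys05 (adjusted p = 0.0629). BAQ12O against Lys05 gave 1 (1.33%, against 0.248% of all genes), again MRPL33 (-0.67, SE 0.12, adjusted p = 0.0153 by limma). It was lost without replicate 1 of Lys05 (adjusted p = 0.158) or replicate 1, 2 or 3 of BAQ12O (0.0736, 0.0550 and 0.0896), and with DESeq2 (0.0633). MRPL33 with Lys05 lay above all vehicle libraries, with a log2 fold change of 0.21 that did not pass (adjusted p = 1.00), so BAQ13 and BAQ12O lay further from Lys05 than from vehicle.

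No member passed the adjusted threshold between BAQ12 and Lys05, BAQ13 and BAQ12, BAQ12O and BAQ12 or BAQ12O and BAQ13 in limma, against 0.162%, 0.562%, 0.229% and 1.39% of all genes. In these comparisons 8, 3, 2 and 4 members had an unadjusted p under 0.05, against 7.17%, 8.27%, 8.38% and 11.2% of all genes, and edgeR and DESeq2 also called none. Intervals are given for MRPS6 and MRPL57, which were named for passing with BAQ13, so they do not stand for the family. The intervals are not adjusted for the number of genes. For MRPS6 the log2 difference of BAQ13 from BAQ12 was 0.30 (95% interval 0.10 to 0.49, adjusted p = 0.25 by limma). That of BAQ12O from BAQ13 was -0.30 (-0.49 to -0.10, adjusted p = 0.17 by limma), and neither passed. BAQ12O and BAQ12 differed by 0.00 (-0.19 to 0.20). For MRPL57 the difference between BAQ12O and BAQ13 was 0.12 (-0.09 to 0.34). Without replicate 3 of BAQ12, 2 members passed between BAQ13 and BAQ12, MRPL3 (-0.48, adjusted p = 0.0443) and MRPL13 (-0.77, adjusted p = 0.0212), both lower with BAQ13, against 3.16% of all genes. Without replicate 1 of BAQ13 as well, MRPL13 passed there, against 2.28%, and MRPL16 and MRPL51 were lower with BAQ12O than with BAQ12, against 2.74%.

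Summed over all genes of a subunit, every BAQ13 and BAQ12O library lay below every vehicle library for the large subunit, whereas the sums of the small subunit overlapped with vehicle. The 48 large-subunit genes summed to 5090, 5280 and 5322 normalised counts in the vehicle libraries, in rising order. The BAQ13 libraries held 4428 to 4941 and the BAQ12O libraries 4619 to 4704, all below vehicle, with means that differed by -9.93% and -10.9%. Lys05 held 4941 to 5105 and BAQ12 4614 to 5141, both overlapping vehicle. The 30 small-subunit genes summed to 5656 to 5886 in vehicle, 5590 to 5901 with BAQ13 and 5550 to 5673 with BAQ12O, with means that differed by -0.311% and -2.45%. These sums weigh each gene by its reads, and no test was run on them. Replicate 1 of BAQ13 was the lowest of its group for the large subunit and replicate 3 of BAQ12 of its own, and without the former the BAQ13 sums were still below vehicle, at 4766 and 4941. In these bulk libraries, less RNA per cell and a smaller share of the RNA cannot be told apart.

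**Figure D4:**
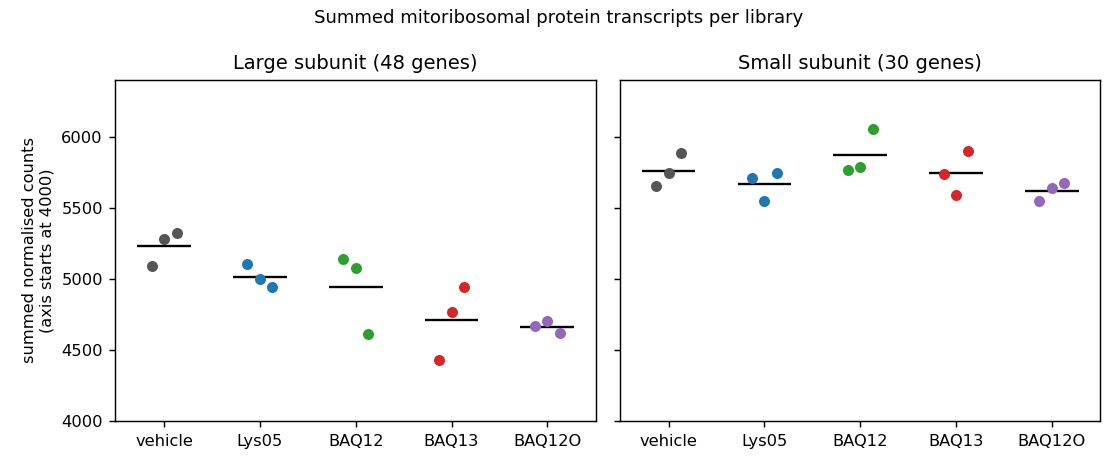
Summed normalised counts of the large-subunit genes (left) and small-subunit genes (right) on the vertical axis, which does not start at 0, with the 5 groups on the horizontal axis, 1 point per library and a bar at the mean of 3. All BAQ13 and BAQ12O points for the large subunit lie below the lowest vehicle point, 5090, whereas the small-subunit points of each treatment overlap with vehicle and span 5550 to 6054.

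MRPS18A, MRPS18B and MRPS18C descend from 1 bacterial protein and were expressed unequally. MRPS18B had 360, 316 and 292 normalised counts in vehicle, MRPS18C 241, 268 and 268, and MRPS18A 52.3, 42.4 and 48.7. Per kilobase of exon these were 171, 53.2 and 37.2, so MRPS18B was the highest on both scales. None of the 3 passed in any comparison with vehicle. The largest differences of MRPS18B and MRPS18C were with BAQ12, at 0.30 (SE 0.12, adjusted p = 0.33 by limma) and -0.25 (SE 0.13, adjusted p = 0.46). In both genes replicate 3 of BAQ12, which stood apart, was the library furthest from vehicle. With BAQ12 the libraries held 355, 362 and 487 for MRPS18B and 245, 235 and 180 for MRPS18C. For MRPS18A the largest difference was -0.44 with BAQ12O (SE 0.26, adjusted p = 0.50 by limma).

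The partners of these proteins moved very differently. MT-RNR1, the rRNA of the small subunit, had 59459, 63994 and 60474 normalised counts in vehicle and rose with all 4 compounds, to between 86926 and 127659. Its log2 fold changes were 0.81 with Lys05, 0.71 with BAQ12, 0.58 with BAQ13 and 0.68 with BAQ12O (SE 0.11; adjusted p = 0.00109, 0.0023, 0.00444 and 0.00329 by limma). MT-RNR2, the rRNA of the large subunit, was above all vehicle libraries in every treatment with log2 fold changes of 0.26 to 0.34, none of which passed (adjusted p = 0.83, 0.25, 0.15 and 0.11). Of the 13 mitochondrial mRNAs that this ribosome translates, 12 passed as lower and MT-ND6 as higher with Lys05, BAQ12 and BAQ13 in limma. With BAQ12O the same number, 12, lay below all vehicle libraries, of which 9 passed, and MT-ND6 passed as higher. The median log2 fold change of the 13 was -2.21, -1.70, -1.35 and -0.59 with Lys05, BAQ12, BAQ13 and BAQ12O. The medians of the nuclear large-subunit genes were -0.06, -0.09, -0.12 and -0.18. Mitochondrial genes have nuclear copies, and how reads that match both were counted is not stated.

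**Figure D5:**
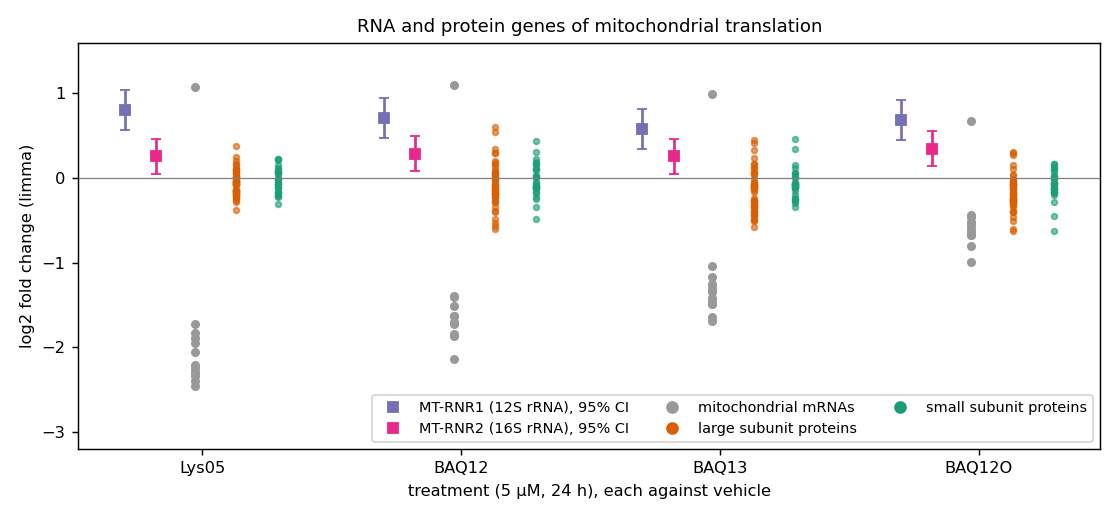
Limma log2 fold changes against vehicle on the vertical axis for the 2 mitochondrial rRNAs (squares with 95% intervals), the 13 mitochondrial mRNAs and the large- and small-subunit protein genes (circles), by treatment. The MT-RNR1 squares lie between 0.58 and 0.81, 12 of 13 mRNAs lie below 0 in each treatment, and the protein genes stay between -0.63 and 0.60.

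Other nuclear genes of mitochondrial translation were followed as well. None of 6 ribosomal proteins with other names, 16 translation factors or 27 ribosome assembly factors tested passed in limma in any comparison with vehicle. Their counts at an unadjusted p under 0.05 were, in that order of lists, 0, 0 and 0 with Lys05 (against 4.98% of all genes), 0, 3 and 1 with BAQ12 (11.8%), 3, 6 and 2 with BAQ13 (19.4%), and 0, 2 and 2 with BAQ12O (12.8%). The 3 of 6 ribosomal proteins and 6 of 16 translation factors with BAQ13, all lower, are above the share of all genes. The 2 of 27 assembly factors, 1 higher and 1 lower, are below it. All of these counts include replicate 1 of BAQ13, which departed from its group. DAP3, a GTP-binding protein of the small subunit, had 136, 177 and 164 normalised counts with BAQ13 against 203, 211 and 212 with vehicle, with no overlap (log2 fold change -0.40, SE 0.17, adjusted p = 0.19). TUFM, the elongation factor that brings tRNA to the ribosome, was at 299, 353 and 309 against 335, 242 and 255 (0.22, SE 0.14, adjusted p = 0.42), and the groups overlapped.

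Cytosolic ribosomal proteins and nuclear respiratory chain subunits gave the nearest comparisons. The median log2 fold change of 82 cytosolic ribosomal protein genes was 0.04, -0.03, 0.04 and -0.01 with Lys05, BAQ12, BAQ13 and BAQ12O, and 1 of them was called, higher with BAQ13, against 5.77% of all genes. That of 78 nuclear respiratory chain genes was -0.05, -0.07, -0.08 and -0.10, with 0 called in limma and 2, 5, 4 and 3 at an unadjusted p under 0.05, against 4.98%, 11.8%, 19.4% and 12.8% of all genes. The differences between these medians and those of the mitochondrial subunits were not tested. With BAQ12O, 58 of the 78 respiratory chain genes (74.4%) had a log2 fold change below 0, near the 59 of 75 members (78.7%). Among the 82 cytosolic ribosomal protein genes 47 did (57.3%). Of the 78 respiratory chain genes, 20 lay below all vehicle libraries and 5 above them, against 18 and 4 of the 75 members. The lower values of the 75 members together with BAQ12O were thus not particular to the mitochondrial ribosome. The large subunit alone had 40 of 47 genes lower (85.1%). With BAQ13, 55 of the 75 members (73.3%), 51 of the 78 respiratory chain genes (65.4%) and 31 of the 82 cytosolic ribosomal protein genes (37.8%) were lower. Differences between these shares were not tested.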

How the data were processed

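Total RNA of 15 MIA PaCa-2 libraries, 3 per group, was sequenced. The labels name a 3′ tag library kit and the study's methods a stranded paired-end kit, which cannot be resolved here. The deposited values are a signal that the authors made by dividing gene counts by a size factor per library. The submitters' processing notes name STAR, HTSeq and DESeq2 on GRCh38 (hg38), with versions and counting mode not given in the sources used here. Dividing each value by the lowest one above 0 in its library gave whole numbers throughout (100%, tolerance 0.01), so whole reads were recovered. With 1586566 to 2500551 reads on genes per library, the members' median spread was close to counting error with vehicle, Lys05 and BAQ12O and above it with BAQ12 and BAQ13.

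Genes with enough recovered reads were kept (filterByExpr of edgeR, minimum count 10, minimum total 15; 10495 genes). The test was limma 3.58.1 (lmFit, eBayes with trend, R 4.3.3) on log2(value + 1) over all 15 libraries without covariates, two-sided, with Benjamini-Hochberg adjustment within each of 10 comparisons and a threshold of 0.05. The p-values are not adjusted across comparisons. Fold changes are on the log2(value + 1) scale, which understates the change of low genes. Alternatives were edgeR 4.0.16 and DESeq2 1.42.0 on recovered reads, TMM factors, pseudocounts of 0.1 and 5, other filters, the 6 libraries compared alone, a replicate block and libraries left out. Leaving out 2 libraries together was added after seeing the data. The fit was tested on simulated data. Coordinates are from GENCODE release 29. Genes were named by rule: those past the threshold, the extremes of each subunit in each comparison with vehicle, the highest and lowest per kilobase, untested members, the MRPS18 trio and set partners. Others named were chosen after their values were seen. The members and lists were chosen with earlier results of these data known.

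Of the members, 17 share exon bases with another gene on the same strand and 29 on the opposite strand, and without knowledge of the kit and counting mode such reads cannot be divided. The 71 listed pseudogenes of the family held 149 reads against 162901 on the members.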

Additional observations from a re-analysis of the deposited data

How the results depend on the processing

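Of 166 alternative counts of called members, 142 stayed within 1.5 times the reported one. In most comparisons the reported count was 0, so many of these are 0 against 0 and say little about how stable a call is. All 8 medians of the large and small subunits against vehicle stayed below 0 in all 16 settings. The 6 libraries alone and the replicate block give the reported medians by construction, so those settings say nothing about them. All settings also reuse the same vehicle libraries, with at most 1 left out. For BAQ13 against vehicle the count was 4 with the 6 libraries alone, 10 without replicate 3 of BAQ12 and 4 without that library and replicate 1 of BAQ13; over single libraries left out it ran from 1 to 10. For BAQ12O against vehicle it was 6, 2 and 6 in those settings. For BAQ13 against Lys05 it was 8 without replicate 3 of BAQ12, where 814 of all 10495 genes passed. It was 4 without both, where 631 of all genes passed, and 1 without replicate 1 of Lys05. For BAQ12O against Lys05 it was 0 with DESeq2, and 3 with the 6 libraries, where 223 of all 10495 genes passed. It was 3 without both, where 261 of all genes passed, and 0 to 2 over single libraries left out. Between BAQ13 and BAQ12 it was 2 and 1, and between BAQ12O and BAQ12 it was 2 without both. The large-subunit median with BAQ13 ran from -0.21 (without replicate 3 of BAQ13) to -0.10, with Lys05 from -0.09 (without replicate 1 of Lys05) to -0.04 (without replicate 3 of vehicle) and with BAQ12 from -0.11 to -0.05 (without replicate 3 of BAQ12). Small-subunit medians ran from -0.12 to -0.01 over the 4 treatments. DESeq2 gave no adjusted p for 0 to 11 members per comparison. The cause of these moves was not tested.

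The replicate numbers did not pair the libraries. Deviations of same-numbered libraries from their group means correlated between -0.49 and 0.20, in no pair of groups did every library correlate best with its own number, and 16 of 60 did so in all. With the replicate block the MRPL33 call between BAQ12O and Lys05 was lost (0 members called, adjusted p = 0.0527 by limma), and no other count changed. Depth limits genes such as MRPL23, MRPL28 and MRPS11, with 6 to 34 reads per library.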
